A study of Mus musculus with 6 samples.

Results

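*Fgf3*, *Fgf4* and *Fgf15* encode 3 secreted fibroblast growth factors (FGFs) whose genes are neighbours on mouse chromosome 7, and the expression of each was compared between *Ezh2* cko and control dorsal midbrain. The genes were taken by symbol: every probe set that the platform's annotation assigns to *Fgf3*, *Fgf4* or *Fgf15* and to no other gene was kept. This gave 8 of the 45037 probe sets analysed, 3 for *Fgf3*, 4 for *Fgf4* and 1 for *Fgf15*, and 3 of the 18193 genes. The genes had been chosen with the *Ezh2* cko against control values of these same arrays known, so their differences are given as a description, with no test.

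Total RNA came from midbrain of C57BL/6 embryos at E10.5, with 3 control and 3 *Ezh2* cko samples and 1 Affymetrix array per sample. *Ezh2* encodes the methyltransferase of Polycomb repressive complex PRC2, which places H3K27me3 on chromatin of silent developmental genes. The *Ezh2* cko carries *Wnt1-Cre*+/*Ezh2*[SET]lox/lox, in which Cre, expressed under *Wnt1* control in dorsal midbrain and neural crest, removes the SET domain sequence of *Ezh2*. By the methods, controls were *Wnt1-Cre*-/*Ezh2*[SET]lox/lox or *Wnt1-Cre*+/*Ezh2*[SET]wt/lox, so every group carries a floxed allele; the labels call all controls WT and do not tell these kinds apart. The methods give 2 litters per group without assigning samples to them. The study reports loss of Ezh2 protein in the midbrain from E10.5 onwards. At a later stage than that of these arrays it describes complete loss in the caudal and only partial loss in the rostral dorsal midbrain. Nothing in the labels says whether the embryos of a sample were pooled, and p-values measure the spread between these samples.

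FGFs bind receptor tyrosine kinases of the Fgfr family together with heparan sulphate, and signal through the Ras-MAP kinase cascade to ETS factors and to feedback inhibitors of the Sprouty and Dusp families. In the embryonic midbrain the best known source is the isthmus, the boundary with the hindbrain, where *Fgf8*, *Fgf17* and *Fgf18* are expressed. *Fgf3*, of the *Fgf7* subfamily, is known from hindbrain and inner ear induction. *Fgf4* is known from the inner cell mass, the primitive streak and the limb bud ridge, and *Fgf15*, the mouse counterpart of human *FGF19*, from the dorsal neural tube and, as a hormone, from the gut.

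The sequences before the starts of *Fgf3* and *Fgf4* are shown because H3K27me3 in mammals is commonly found at CpG-rich starts of silent developmental genes. They are the 250 bases before each annotated start from RefSeq on GRCm38.p6, plus strand, with each CpG in capitals. The *Fgf3* window is chr7:144838362-144838611 and the *Fgf4* window is chr7:144861136-144861385. *Fgf15* had no entry in the promoter table.
Fgf3: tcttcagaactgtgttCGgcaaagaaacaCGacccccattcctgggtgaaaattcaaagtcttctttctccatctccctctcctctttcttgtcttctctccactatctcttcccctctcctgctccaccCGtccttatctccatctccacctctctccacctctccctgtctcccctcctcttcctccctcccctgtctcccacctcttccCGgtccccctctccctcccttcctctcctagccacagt
Fgf4: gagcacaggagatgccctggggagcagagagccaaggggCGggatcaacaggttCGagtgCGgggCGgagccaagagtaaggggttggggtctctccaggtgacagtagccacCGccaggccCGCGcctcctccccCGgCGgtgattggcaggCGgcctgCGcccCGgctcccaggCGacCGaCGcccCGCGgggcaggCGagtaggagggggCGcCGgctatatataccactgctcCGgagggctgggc
The *Fgf3* window held 4 CpG and was 55.2% G or C, with an observed over expected CpG ratio of 0.407. The *Fgf4* window held 21 CpG and was 71.2% G or C, with a ratio of 0.675. Over 32841 promoter windows of the same length, the median was 6 CpG and 52.4% G or C. Fewer CpG were found in 37.8% of windows than in that of *Fgf3*, and in 83.6% than in that of *Fgf4*. These neighbours thus differ in CpG content in the 250 bases before their starts. Bases after the starts were not examined. Both strands were searched for 4 short motifs. The letters TATAAA occurred in 12.4% of all windows, the letters CCAAT in 33.9%, the letters GGGCGG in 32.7% and the letters CTTTGAT in 3.21%. None of these was found in the *Fgf3* window, and the *Fgf4* window held CCAAT on the minus strand 106 bases before the start and GGGCGG on the plus strand 214 and 188 bases before it. Histone marks were not measured on these arrays.

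For *Fgf3*, all 3 probe sets were higher on every *Ezh2* cko array than on any control array. Signals are deposited as log2 values, so a difference of 1 is a doubling. Probe set 1441914_x_at read 6.39, 6.37 and 6.39 on the control arrays and 7.54, 7.92 and 7.79 on the *Ezh2* cko arrays. Its mean was 6.38 ± 0.01 against 7.75 ± 0.20 (SD, n = 3), a log2 difference of 1.37 (SE 0.11) or 2.59-fold. The lowest *Ezh2* cko array lay 1.15 above the highest control. Probe set 1441350_at read 6.14, 6.50 and 6.46 in controls against 7.53, 7.77 and 7.62, with means of 6.37 ± 0.20 and 7.64 ± 0.12 (SD, n = 3) and a log2 difference of 1.28 (SE 0.13) or 2.42-fold. On both of these probe sets, *Ezh2* cko replicate 2 was the highest array. Probe set 1422923_at read 5.85, 5.89 and 5.78 in controls against 6.37, 6.29 and 6.15, a log2 difference of 0.43 (SE 0.07) or 1.35-fold. *Fgf3* thus differed by 2.42- to 2.59-fold on a pair of its probe sets and by 1.35-fold on the other. By the annotation, the source of 1422923_at is a RefSeq transcript, and those of the pair are other sequence entries.

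For *Fgf4*, the 4 probe sets fell into 2 that were much higher in the *Ezh2* cko and 2 whose groups overlapped. Probe set 1420085_at read 4.49, 4.32 and 4.03 in controls and 6.02, 6.86 and 6.07 in the *Ezh2* cko. Its mean was 4.28 ± 0.23 against 6.32 ± 0.47 (SD, n = 3), a log2 difference of 2.04 (SE 0.30) or 4.11-fold. The groups were 1.53 apart, and *Ezh2* cko replicate 2 was the highest array. Probe set 1420086_x_at read 4.72, 4.24 and 3.99 against 6.03, 6.78 and 5.96, a log2 difference of 1.94 (SE 0.34) or 3.83-fold. On both, the control signals lay below the median signal of the arrays, 5.68 to 5.72, and were not shown to be above background, since the files give no detection call. The folds are therefore those of the signals, and a fold of the *Fgf4* transcript cannot be given from them. A filter that left out probe sets with a mean over all arrays below the median of such means removed both.

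The other *Fgf4* probe sets showed no such separation. Probe set 1449729_at read 3.23, 3.14 and 3.38 in controls and 3.24, 3.52 and 3.46 in the *Ezh2* cko, a log2 difference of 0.16. On every array its signal lay below the median signal of the arrays and was not shown to be above background. The filter on the mean over all arrays removed this probe set too. Probe set 1450282_at read 6.33, 6.42 and 6.16 in controls and 6.25, 6.20 and 6.12 in the *Ezh2* cko, a log2 difference of -0.11. Control and *Ezh2* cko arrays overlapped on both. The annotation gives 1449729_at the same source sequence as 1420085_at and 1420086_x_at, so these 3 are not independent readings of *Fgf4*. That of 1450282_at is a RefSeq transcript, as for *Fgf3* 1422923_at and *Fgf15* 1418376_at. The largest differences of *Fgf3* and *Fgf4* thus lay on probe sets from other sources. Where each probe set lies on the transcript was not analysed here, and the reason for the split was not tested. A rule that represents *Fgf4* by its probe set with the highest mean takes 1450282_at, on which the groups did not separate.

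*Fgf15* has 1 probe set, 1418376_at, which read 10.79, 10.82 and 10.75 in controls and 11.56, 11.29 and 11.12 in the *Ezh2* cko. The controls spanned 0.06, and every *Ezh2* cko array was at least 0.30 above the highest control. The mean signal was 10.79 ± 0.03 against 11.32 ± 0.22 (SD, n = 3), a log2 difference of 0.53 (SE 0.13) or 1.45-fold. Among the 3 *Ezh2* cko arrays, replicate 1 was here the highest and replicate 3 the lowest. This order within the *Ezh2* cko was seen also on *Fgf3* 1422923_at and *Fgf4* 1450282_at but on none of the other 5 probe sets.

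**Figure D1:**
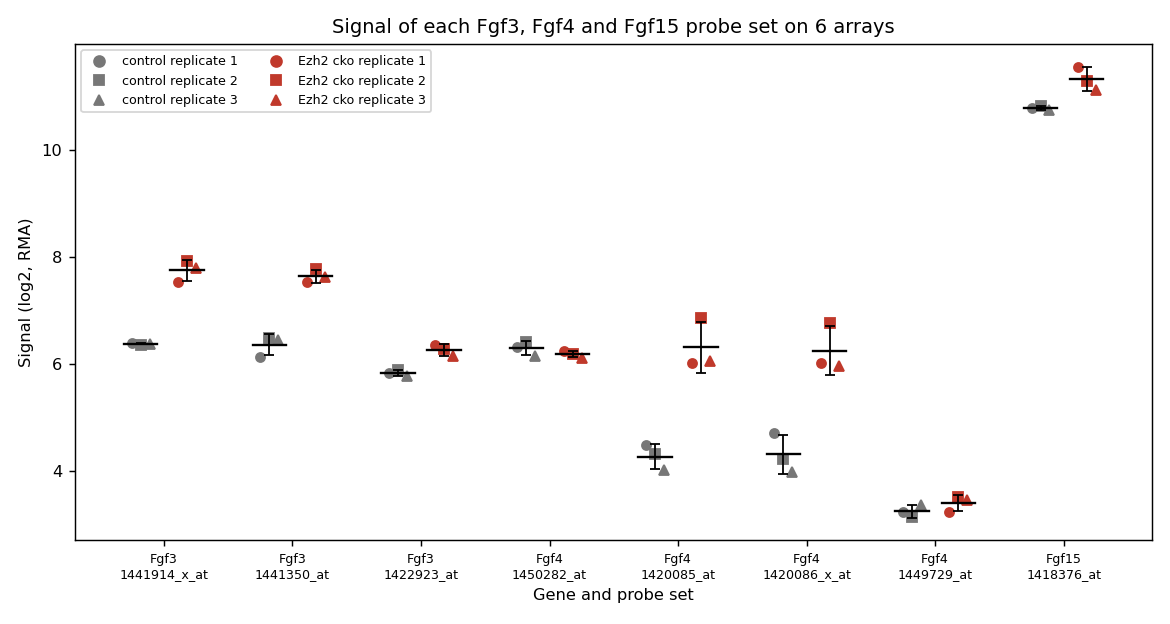
Log2 RMA signal (vertical axis) of the 8 probe sets of *Fgf3*, *Fgf4* and *Fgf15* (horizontal axis) on 3 control (grey) and 3 *Ezh2* cko (red) arrays; points are arrays, long bars the mean and error bars the SD. The *Ezh2* cko arrays lie above all controls on 6 of the 8 probe sets, by the widest gap on *Fgf4* 1420085_at (1.53), and overlap with controls on *Fgf4* 1450282_at and 1449729_at.

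In the limma fit over all probe sets, 4 of the 8 were past an adjusted p of 0.05 with higher signal, a pair each for *Fgf3* and *Fgf4*, against 0.184% of all probe sets, and none was past it with lower signal against 0.00444%. The groups did not overlap, with the *Ezh2* cko higher, on 6 of the 8, against 5.72% of all probe sets, and with it lower on none, against 7.27%. Because the genes were chosen on this contrast, nothing is read from these counts. *Fgf15* and *Fgf3* 1422923_at separated the groups but were not among the probe sets past the adjusted p. Without control replicate 2, or without control replicate 3, 2 of the 8 were past it, both of *Fgf3*, and the methods' t-test called 0 of 8 after adjustment.

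No signal value on these arrays shows that a transcript is absent, and levels of different probe sets were not set against each other. Fewer cells of a type and less RNA per cell cannot be told apart in such tissue samples. The single *Ezh2* probe set read 11.70 ± 0.05 in controls and 11.75 ± 0.04 in the *Ezh2* cko (log2 difference 0.05, limma adjusted p = 0.918); where it lies relative to the deleted SET sequence was not analysed here, so it does not check the labels. Of 13 midbrain and isthmus genes, 0 were past the adjusted p in limma, beside 0.297% of all genes higher and 0.0055% lower. At an unadjusted p under 0.05, 4 were higher (30.8%, against 6.12% of all genes) and 1 lower (against 501 of 18193 genes). By the methods' t-test 2 were higher. Among the 13, *Otx2* differed by 0.09 and *En2* by 0.17, and *Wnt1*, the gene whose promoter drives Cre, by 0.90 (limma adjusted p = 0.0712). *Lmx1b* differed by 0.57 (limma adjusted p = 0.214), with -0.01 on its other probe set. Of the 13 genes, 11 had a positive difference, with a median of 0.17 beside -0.02 over all genes. Their summed linear signal was 0.962 to 1.03 times the control mean in controls and 1.10 to 1.24 times in the *Ezh2* cko.

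Markers of other cells that the dissection could hold were read beside the differences of *Fgf3*, *Fgf4* and *Fgf15*. Of 20 surface ectoderm and epithelium genes, 2 were higher in limma, the adhesion genes *Epcam* (1.33, adjusted p = 0.00368, with 0.18 on its other probe set) and *Cdh1* (0.77, adjusted p = 0.0166), against 0.297% of all genes, and 0 were lower. At an unadjusted p under 0.05, 7 of the 20 were higher (35.0%, against 6.12% of all genes) and 1 lower, and by the methods' t-test 5 were higher and 2 lower. The tight junction gene *Ocln* differed by 1.08 (adjusted p = 0.0647) and the epithelial splicing factor *Esrp1* by -0.63 (adjusted p = 0.276). The summed linear signal of that list, relative to the control mean, ran from 0.949 to 1.05 in controls and from 1.36 to 1.45 in the *Ezh2* cko. The keratins *Krt5* (-0.11) and *Krt14* (-0.15) and the basal epithelial factor *Trp63* (-0.06) were not past the test. No gene was past the test among 8 hindbrain segment genes, whose sums were 0.964 to 1.06 and 1.05 to 1.25, or among 11 pharyngeal and gut endoderm genes, at 0.962 to 1.07 and 0.971 to 1.08. The same held for 13 mesenchyme genes, at 0.838 to 1.09 and 1.16 to 1.32, and 14 neuron genes, at 0.865 to 1.08 and 1.04 to 1.38. None was past the test among 8 macrophage genes, at 0.799 to 1.16 and 1.13 to 1.31, 8 endothelium genes, at 0.967 to 1.04 and 0.914 to 1.19, and 7 erythroid genes, at 0.950 to 1.07 and 0.990 to 1.03. Of these 7 lists and the epithelium list, only the summed signals of epithelium and mesenchyme genes did not overlap between the groups. A sum follows its brightest genes, and the mean log2 deviation of the hindbrain genes, which weights them equally, did not overlap either, at -0.15 to -0.01 in controls and -0.01 to 0.23 in the *Ezh2* cko, ranges that were 0.0027 apart. Of 12 pluripotency genes of the early embryo, where *Fgf4* is best known, none was past the test and 5 had a positive difference, with a median of -0.03. *Pou5f1* differed by 0.09 and *Nanog* by 0.10, while the largest difference was that of *Lin28a*, -0.65 with no overlap between the groups (adjusted p = 0.355). Their sums, 0.948 to 1.06 and 0.916 to 1.06, were 85.9% the signal of *Sox2*, which neural progenitors also express. At an unadjusted p under 0.05 in limma, 7 mesenchyme genes (53.8%) were higher and 1 lower, and 7 neuron genes (50.0%) were higher, beside 6.12% of all genes. By the same reading 1 macrophage gene and 1 hindbrain gene were higher, 1 pluripotency gene was higher and 1 lower, and 0 of the endoderm, endothelium and erythroid genes differed. By the methods' t-test these were 4 and 1 for mesenchyme, 1 higher for hindbrain and for pluripotency, and 0 for the others. The part of these cell types in the differences of *Fgf3*, *Fgf4* and *Fgf15* was not tested.

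None of the genes beside the cluster was past the test, where 0.297% of all genes were higher and 0.0055% lower. In the order of the RefSeq table no other protein-coding gene lies between *Fgf3*, *Fgf4* and *Fgf15*. The 10 nearest genes with a probe set before *Fgf3* and the 5 remaining after *Fgf15* were fitted in limma. Of these 15, 0 were past the adjusted p in either direction (lowest adjusted p = 0.691), which is near the share of all genes. At an unadjusted p under 0.05 there were 0, by limma or by the methods' t-test. By limma, 1113 of all 18193 genes were higher at that p and 501 lower. Their log2 differences ran from -0.26 to 0.20 with a median of 0.00, beside -0.02 over all genes, and their 27 probe sets ran from -0.26 to 0.25. On the *Fgf3* side, *Ano1*, a chloride channel gene, differed by 0.20, its arrays not overlapping. On the *Fgf15* side *Ccnd1*, which encodes cyclin D1, differed by 0.00 (adjusted p = 0.999), with 0.25 and 0.09 on its other probe sets, and *Tpcn2*, an endolysosomal channel gene, by -0.26. A difference from the cluster itself was not tested, since its genes had been chosen on this contrast.

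**Figure D2:**
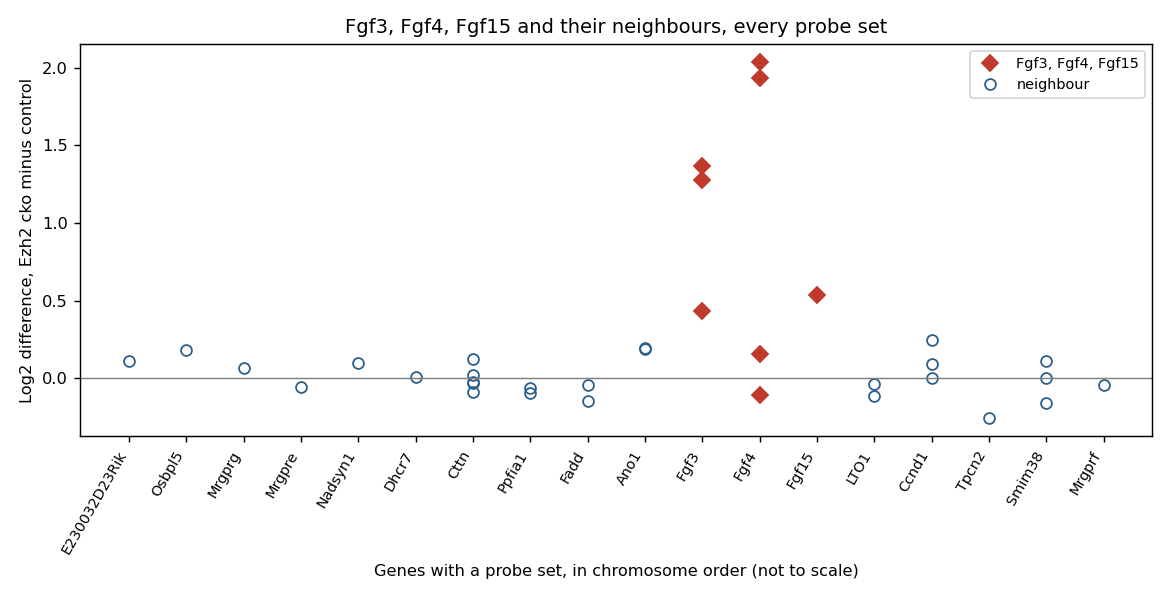
Log2 difference, *Ezh2* cko minus control (vertical axis), of every probe set of *Fgf3*, *Fgf4*, *Fgf15* (filled) and 15 neighbours (open) in chromosome order, not to scale. All 27 neighbour probe sets lie between -0.26 and 0.25, and the 8 of the cluster between -0.11 and 2.04. The cluster's genes were chosen on this contrast, so the 2 ranges are not compared.

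The other FGF ligands had small differences. Of 13 paracrine ligand genes, 0 were past the adjusted p in limma (0.297% of all genes were higher and 0.0055% lower), 1 had an unadjusted p under 0.05 and 0 did by the methods' t-test. Their log2 differences ran from -0.17 to 0.29 with a median of -0.01. In the subfamily of *Fgf3*, *Fgf7* differed by 0.09, *Fgf10* by -0.09 and *Fgf22* by -0.10. In that of *Fgf4*, *Fgf5* differed by -0.17, its groups not overlapping, but by 0.07 with overlapping groups on its other probe set. *Fgf6* differed by -0.08. The hormone-like relatives of *Fgf15*, *Fgf21* (0.10) and *Fgf23* (-0.02), were not past the test. At the isthmus, *Fgf8* read 8.27 ± 0.19 in controls and 8.23 ± 0.37 in the *Ezh2* cko (SD, n = 3; limma adjusted p = 0.977), and *Fgf18* 8.29 ± 0.14 and 8.58 ± 0.20 (adjusted p = 0.632). The largest difference among the 4 intracellular FGF homologous factors was that of *Fgf11*, 0.46 (adjusted p = 0.490), with -0.02 on its other probe set.

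On the receiving side, none of 7 receptor and co-receptor genes was past the adjusted p in limma, nor at an unadjusted p under 0.05, also by the methods' t-test. *Fgfr1* differed by 0.03, with 0.10 and -0.05 on its other probe sets, and *Fgfr2* by -0.10, with -0.31 and 0.01. *Fgfr3* differed by -0.30 (adjusted p = 0.782), with 0.01 on its other probe set. Without a single array the difference of *Fgfr3* ran from -0.53 (without control replicate 1) to -0.15 (without control replicate 3), and it was -0.20 without *Ezh2* cko replicate 1. Of 17 genes for heparan sulphate and matrix partners, 0 were past the adjusted p and 3 had an unadjusted p under 0.05 with higher signal, by limma and by the methods' t-test. The lowest adjusted p of all 69 FGF pathway genes measured, 0.117, was that of *Sdc2*, a heparan sulphate proteoglycan (0.42), followed within this list by *Hs6st2*, a heparan sulphate sulphotransferase (0.43, adjusted p = 0.289). Their other probe sets ran from -0.16 to 0.32 for *Sdc2* and from -0.01 to 0.48 for *Hs6st2*. Of 11 relay genes none was past the adjusted p or an unadjusted p under 0.05 by either test.

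Target and feedback genes of FGF signalling lay mostly above 0 without passing the test. Of 15, 12 had a positive difference, with a median of 0.19 beside -0.02 over all genes. In limma 0 were past the adjusted p, and 5 had an unadjusted p under 0.05, all higher, against 6.12% of all genes, with 4 by the methods' t-test. *Spry2*, a Sprouty feedback inhibitor, differed by 0.44 (adjusted p = 0.219), *Il17rd*, a membrane antagonist of FGF signalling, by 0.41 (adjusted p = 0.416), and *Dusp6*, a phosphatase of ERK, by 0.31 (adjusted p = 0.650). The ETS factors *Etv4* and *Etv5* differed by 0.29 and 0.19. Without *Ezh2* cko replicate 1 the differences were 0.16 for *Dusp6*, 0.14 for *Etv4* and 0.11 for *Etv5*, and without *Ezh2* cko replicate 2 that of *Etv4* was 0.44. The other probe sets of *Spry2* and *Il17rd* differed by 0.14 and 0.16. *Spry4* differed by 0.26 (adjusted p = 0.463), but its other 3 probe sets by -0.06 to 0.07. *Il17rd* read 11.90, 11.76 and 11.74 in controls and 12.48, 12.15 and 12.01 in the *Ezh2* cko, and *Dusp6* 11.81, 11.72 and 11.69 against 12.35, 12.02 and 11.79. Among the *Ezh2* cko arrays both had the order of *Fgf15*, replicate 1 highest and replicate 3 lowest. *Spry2* (9.92, 9.67 and 9.72), *Etv4* (8.25, 7.64 and 7.93) and *Spry4* (7.31, 7.28 and 7.40) did not. That order was found for 6 of the 15 target genes, beside 21.0% of all genes. Over all 69 pathway genes, 8 did not overlap with the *Ezh2* cko higher, where 7.52% of all genes did, and 3 with it lower, where 7.88% did.

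**Figure D3:**
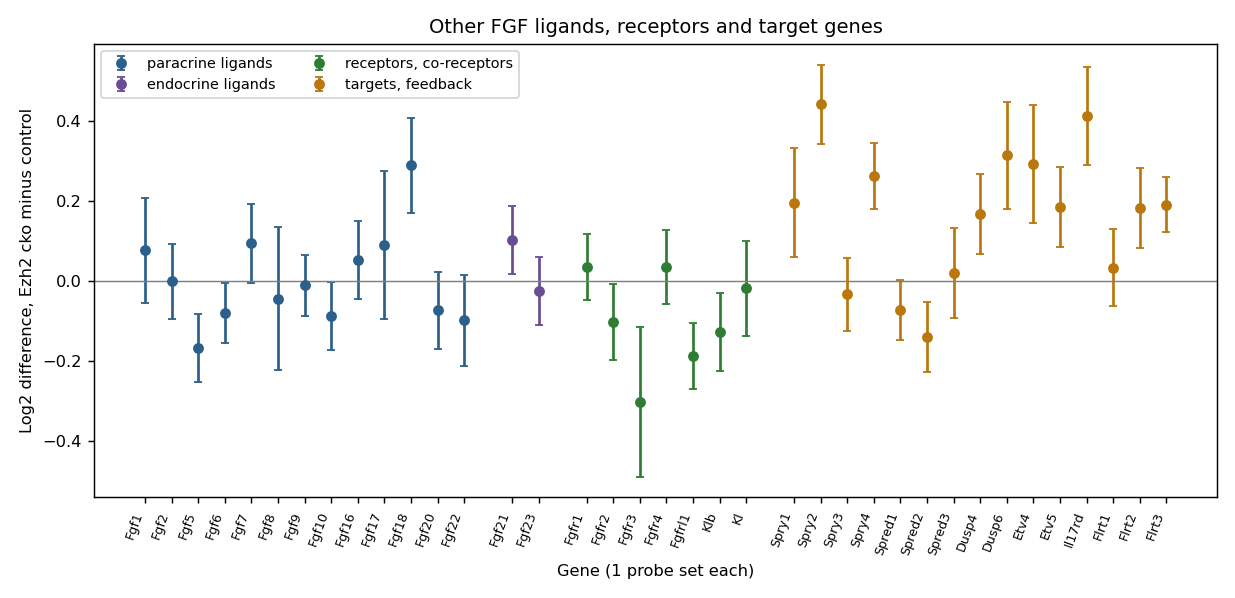
Log2 difference, *Ezh2* cko minus control (vertical axis), with limma's SE, for the other paracrine and endocrine ligands, receptors and target genes (horizontal axis), 1 probe set per gene. Values run from -0.30 for *Fgfr3* to 0.44 for *Spry2*, and none was past the adjusted p.

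**Figure D4:**
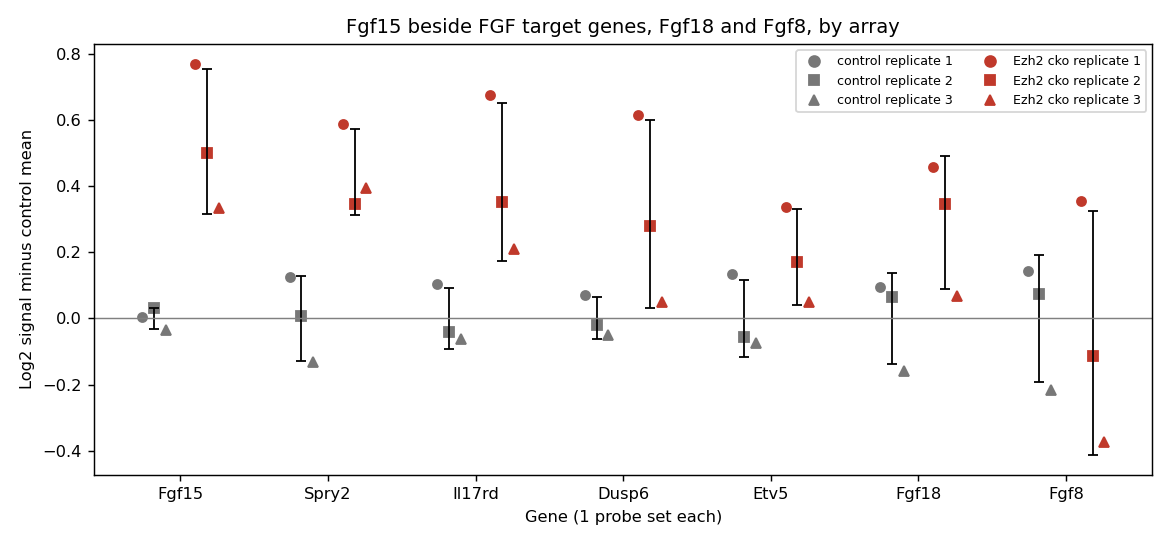
Signal of *Fgf15*, 4 target genes, *Fgf18* and *Fgf8* on each array, as log2 signal minus the control mean (vertical axis), with error bars for the SD around the mean of each group of 3. *Ezh2* cko replicate 1 is the highest array for each gene shown, as it was for 8 of all 15 target genes. The groups overlap for *Dusp6*, *Etv5*, *Fgf18* and *Fgf8*.

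The genes whose signal followed each member most closely were sought among 324 genes with a range of at least 1 log2 unit over the 6 arrays. Pearson's r over these arrays is a description, and a difference between the groups shared by 2 genes raises it. For *Fgf3* (1441914_x_at) the closest were *Coch* (r = 0.989), *Ugt8a* (0.987) and *Bmi1* (0.987), and for *Fgf15* they were *Pla2g7* (0.987), *Exph5* (0.981) and *Dkk1* (0.970). The *Fgf4* set with the highest mean, 1450282_at, was closest to *Plcd4* (0.913), *Prl8a2* (0.911) and *Myo5b* (0.839). For *Fgf4* 1420085_at, chosen after its values were seen, they were *Coch* (0.968), *Epcam* (0.966) and *Pcp4l1* (0.965).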

How the data were processed

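Total RNA of 3 control and 3 *Ezh2* cko midbrain samples was labelled and hybridized, 1 Affymetrix A430 array each. The authors summarised the arrays with RMA (version not given in the sources used here), and deposited a log2 signal for each probe set. RMA makes the distributions of the arrays alike (medians 5.68 to 5.72), so a shift of all genes would not be seen. Of 45101 probe sets, 64 controls were left out, and the difference *Ezh2* cko minus control was estimated for 45037 in R 4.3.3 by lmFit and eBayes of limma 3.58.1, with Benjamini-Hochberg adjustment over all of them and a threshold of 0.05. The procedure was tested on simulated data.

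Symbols came from the platform annotation, 1 symbol for 34945 probe sets, several for 932 and none for 9160. Of the first, 34741 matched the RefSeq table of GRCm38.p6, which was used for names and gene order. A gene other than *Fgf3*, *Fgf4* and *Fgf15* is represented by its probe set with the highest mean. The members, gene lists and tests were chosen with earlier results of these data known. The text names all probe sets of *Fgf3*, *Fgf4* and *Fgf15*, any FGF ligand, receptor or target gene, up to 4 of each other list and those past the adjusted p, the nearest neighbours, and the 3 genes most like each member. Other probe sets are given where they differ in size or sign for a gene the text turns on. Array signals carry no depth, and the number of arrays limits the precision. Alternatives were further normalizations, the methods' t-test, other priors, weights and filters, the replicate number as a block, and each array left out in turn. The methods name an unpaired Student's t-test but do not say which test gave the array p-values. The Benjamini-Hochberg adjustment of the t-test was added here.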

Additional observations from a re-analysis of the deposited data

How the results depend on the processing

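The log2 differences of the 8 probe sets of *Fgf3*, *Fgf4* and *Fgf15* kept their sign under every normalization, the linear scale and the removal of any array. With each array left out in turn they ran from 1.29 to 1.48, 1.16 to 1.34 and 0.38 to 0.49 for *Fgf3* (1441914_x_at, 1441350_at, 1422923_at), from 1.77 to 2.19, 1.68 to 2.14, 0.10 to 0.24 and -0.18 to -0.05 for *Fgf4* (1420085_at, 1420086_x_at, 1449729_at, 1450282_at), and from 0.42 to 0.63 for *Fgf15*. The number of these probe sets past the adjusted p in limma, 4, whose alternatives were chosen after seeing the data, was 2 to 4 with an array left out, 2 with dim probe sets left out, where 5 of the 8 stayed in the fit, and 0 by the methods' t-test. Over all probe sets, 83 were higher and 2 lower. The methods' t-test with the adjustment added here gave 0 and 0, and leaving out an array gave 20 to 44 and 1 to 4. The trended and robust prior gave 5 lower, and the methods' threshold 9. Same-numbered samples did not deviate together (r = 0.06, -0.20 and 0.06), and pairs with different numbers ran from -0.16 to 0.12. The replicate numbers thus showed no pairing, but these values cannot tell whether samples shared a litter or batch. With the replicate number as a block the counts were 56 higher and 3 lower, and 4 of the 8 remained past the adjusted p. No gene of the FGF pathway or neighbour of the cluster was past the adjusted p under any alternative. The median over all probe sets stayed between -0.02 and 0.00 under the normalizations. With 3 arrays a group, a miss of the threshold does not show that a gene did not differ.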

Other observations

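How often 1 of the *Ezh2* cko arrays stood highest was counted after the values were seen. *Ezh2* cko replicate 1 was the highest of the 6 arrays for 8 of 15 FGF target and feedback genes (53.3%) and for 10 of 13 midbrain and isthmus genes (76.9%), beside 2739 of 18193 genes (15.1%) in all. It was also the highest for 6 of 8 endothelium genes (75.0%) and for 1 of 14 neuron genes (7.14%). *Fgf15* had its highest value on that array, whereas *Fgf4* 1420085_at and 1420086_x_at and *Fgf3* 1441914_x_at and 1441350_at had theirs on *Ezh2* cko replicate 2.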
